A study of Mus musculus with 8 samples.

Results

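The genes described here encode the non-collagen proteins that fibroblasts lay down around themselves, together with 4 proteins of the fibroblast surface. The list held 34 genes: 7 small leucine-rich proteoglycans, the large proteoglycan versican, 3 fibulins, 9 genes of microfibrils and elastic fibres, 8 adhesive and matricellular glycoproteins, 2 nidogens and 4 surface proteins. A gene was taken from the table through its symbol in the platform annotation, with the highest-mean probe set standing for the gene. This found 33 of the 34, each with exactly 1 probe set, among 19938 genes on the array. Fbn1, the main fibrillin gene, matched no probe set by symbol or gene identifier, and its expression is not analysed here.

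RNA was measured in MaF pre-iPSC9P2, a mouse clone of partly reprogrammed cells that had not reached the induced pluripotent state. The medium in every group was that of mouse embryonic stem cells, over a feeder layer, and from day 2 it held either no vitamin C or 50 µg/ml of it. There were 8 arrays, 1 for each treatment on days 3, 4, 5 and 6, so that 4 arrays were untreated and 4 came from cells with vitamin C. The cells were trypsinised and freed of feeder cells before RNA extraction. All values are from 1 clone, and how completely feeder cells were removed was not measured in the sources used here. Whether each day was a culture of its own is not given in the labels, so some or all of the 8 arrays may be technical repeats. No treatment had a repeat within a day, and the p-values do not measure a spread among such repeats. For vitamin C they rest on how the difference varied between days, so a difference that changes with day counts as spread. For the slopes they rest on departures from straight lines. So few arrays allow only limited precision. A difference on a single day has no replicate.

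Fibroblasts surround themselves with collagen fibrils, elastic microfibrils and a fibronectin network. Small leucine-rich proteoglycans coat the fibrils, fibulins and latent TGF-beta binding proteins attach to the microfibrils, and matricellular proteins such as tenascin and the thrombospondins change how cells grip the whole. Mouse embryo fibroblasts, the usual feeder layer, produce these proteins in quantity. In somatic cells that are being reprogrammed, the loss of such mesenchymal genes accompanies the turn to an epithelial and later pluripotent state. The same RNAs can therefore come from feeder cells left in the preparation or from the pre-iPSCs themselves.

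Values are given on the log2 scale of the authors' RMA output, on which a difference of 1 is 2-fold. Medians over all probe sets lay between 4.33 and 4.40 on the 8 arrays, and pairs of arrays correlated with 0.977 to 0.994. Of the 33 genes, 10 had a mean log2 value under the median of all genes (4.70), namely Lum, Ogn, Fmod, Aspn, Prelp, Fbn2, Eln, Mfap4, Spon2 and Fap. The deposited values carry no call of detection, so it is not known how far these dimmer probe sets read their RNA above background. Differences between probe sets in level are not read as differences between genes.

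The matrix genes as a set read lower with vitamin C at the start and lower on day 6 than on day 3 in both treatments, with a smaller gap between treatments at the end. The mean log2 value over the 33 genes was 6.77, 6.79, 6.44 and 6.07 untreated on days 3 to 6, and 6.26, 6.19, 6.08 and 5.88 with vitamin C. Summed on the linear scale, their signal went from 11730 to 7966 units untreated and from 7716 to 6776 units with vitamin C between day 3 and day 6. Bright probe sets dominate these sums. The 8 adhesive and matricellular genes alone went from 7932 to 5272 units untreated and from 5057 to 4666 with vitamin C. In bulk RNA, fewer cells of a type and less RNA per cell cannot be told apart.

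**Figure D1:**
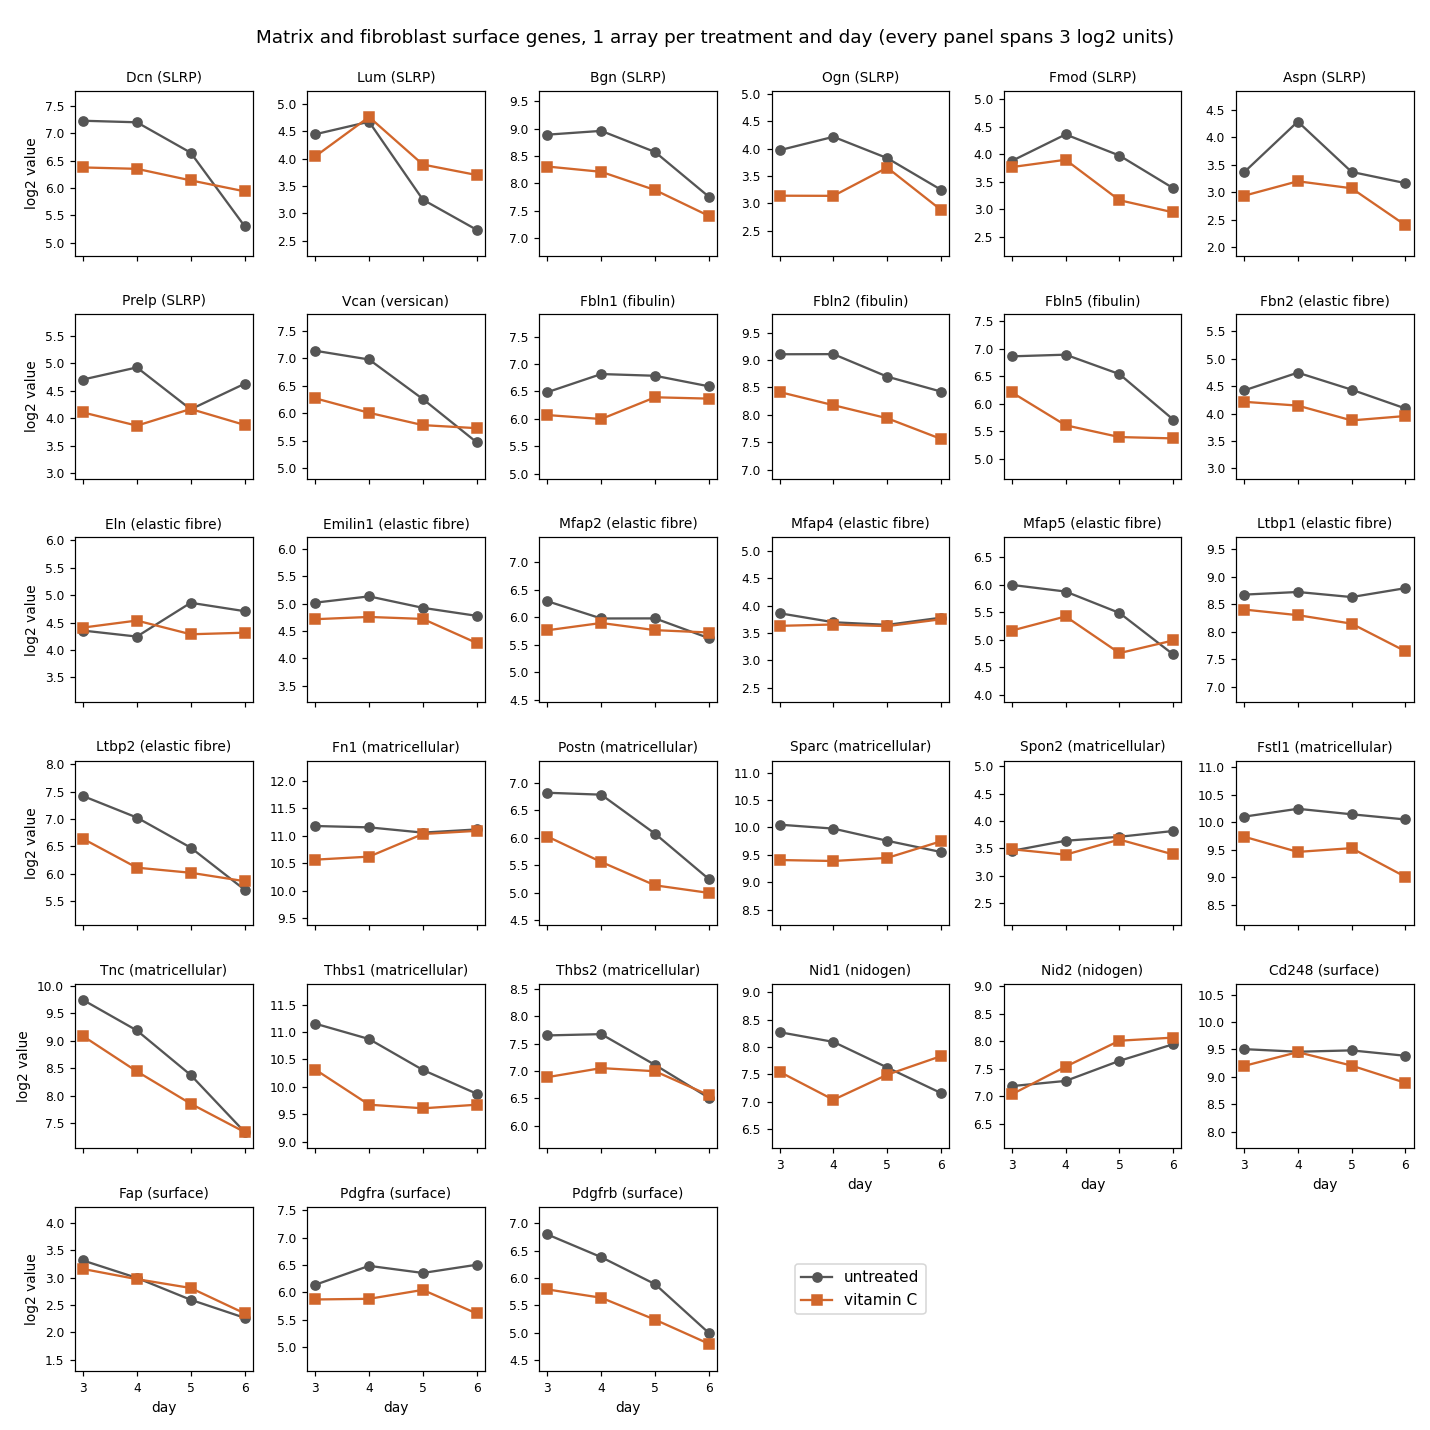
Log2 values of the 33 genes on each of the 8 arrays, with day on the horizontal axis, grey circles for untreated cells and orange squares for cells with vitamin C, 1 array per point, and every panel spanning 3 log2 units. Tnc, Postn and Pdgfrb run downwards in both treatments, Nid2 runs upwards in both, and the lines of Dcn, Vcan, Ltbp2 and Nid1 cross before day 6.

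To set sequence beside these courses, the 250 bases before the annotated start of 4 genes are printed: Fbln2, which passed the test for a vitamin C difference, Tnc and Postn, which fell with day in both treatments, and Nid1, whose vitamin C difference changed most with day. They are from RefSeq, assembly GRCm38.p6, written 5′ to 3′ on the strand of the gene, and capitals mark matches to the motifs searched. Fbln2 starts after chr6:91212514-91212763 on the plus strand and Postn after chr3:54359017-54359266 on the plus strand. The window of Nid1 is chr13:13437352-13437601 on the plus strand and that of Tnc chr4:64047016-64047265 on the minus strand.
Fbln2: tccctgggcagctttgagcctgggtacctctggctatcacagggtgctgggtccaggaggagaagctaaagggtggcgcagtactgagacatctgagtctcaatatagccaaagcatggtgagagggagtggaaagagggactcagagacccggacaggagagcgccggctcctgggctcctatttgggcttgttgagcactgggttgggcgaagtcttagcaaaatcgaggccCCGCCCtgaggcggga
Tnc: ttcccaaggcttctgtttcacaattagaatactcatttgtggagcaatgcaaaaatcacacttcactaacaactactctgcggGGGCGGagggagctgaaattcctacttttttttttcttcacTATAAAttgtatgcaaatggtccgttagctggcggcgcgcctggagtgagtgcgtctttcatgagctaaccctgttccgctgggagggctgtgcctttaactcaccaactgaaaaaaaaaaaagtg
Postn: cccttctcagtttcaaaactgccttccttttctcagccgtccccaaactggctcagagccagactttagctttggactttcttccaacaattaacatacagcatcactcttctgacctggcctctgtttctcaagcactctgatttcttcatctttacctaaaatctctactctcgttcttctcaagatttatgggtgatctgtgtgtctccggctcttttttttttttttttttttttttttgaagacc
Nid1: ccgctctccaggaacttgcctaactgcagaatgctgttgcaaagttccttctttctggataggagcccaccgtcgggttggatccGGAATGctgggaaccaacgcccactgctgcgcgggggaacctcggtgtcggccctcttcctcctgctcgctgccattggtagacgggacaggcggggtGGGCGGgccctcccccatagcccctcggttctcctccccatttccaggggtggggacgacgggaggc
The motifs were a TATA box (TATAAA), a GC box (GGGCGG), an AP-1 site (TGANTCA), a TEAD site (CATTCC) and the E-box of Snai and Zeb factors (CACCTG), each on both strands, and none of them contains another. In Fbln2 a GC box begins 16 bases before the start. In Tnc a GC box lies at 167 and a TATA box at 126 bases, in Nid1 a TEAD site at 165 and a GC box at 67 bases, and Postn holds none of the 5 motifs in this window.

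RefSeq promoter windows were at hand for 21 of the 34 genes, among them Fbn1, which has no value on the arrays. A GC box stood in 9 of them, Fbn1 included (42.9%, against 33% of 27025 mouse promoter windows of that length). A TATA box stood in 4 (19.0% against 13%), a TEAD site in 3 (14.3% against 12.6%) and a Snai and Zeb E-box in 1, that of Ltbp2 (4.8% against 17.1%). The AP-1 letters were in 0 of 21 windows, against 6.9% of all. Such matches describe letters in a window and not the binding of a factor.

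Small leucine-rich proteoglycans sit on collagen fibrils and set their width and spacing. Dcn, which encodes decorin, read 7.23, 7.20, 6.64 and 5.31 untreated on days 3 to 6 and 6.37, 6.35, 6.14 and 5.94 with vitamin C. It was thus higher without vitamin C up to day 5 and lower on day 6, and the untreated fall took it to 26.4% of its day 3 level, against 74.0% with vitamin C. Bgn, the gene of biglycan, a close relative of decorin, read 8.89, 8.96, 8.57 and 7.76 untreated and 8.31, 8.21, 7.88 and 7.41 with vitamin C. Here vitamin C gave the lower value on every day. Lum, which encodes lumican, read 4.44, 4.67, 3.25 and 2.70 untreated and 4.04, 4.76, 3.89 and 3.70 with vitamin C, so it was the proteoglycan with higher values under vitamin C from day 4 on, at a dim probe set.

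The other 4 small proteoglycans were dim as well. Ogn (osteoglycin) ran from 2.88 to 4.22 over all arrays, Fmod (fibromodulin, which binds collagen fibrils) from 2.94 to 4.36, Aspn (asporin) from 2.40 to 4.29 and Prelp, which links fibrils to heparan sulphate, from 3.87 to 4.93. All 4 were at their highest in the untreated array of day 4, and on that day Ogn, Aspn and Prelp were at least 2-fold lower with vitamin C. Several of these genes are neighbours in the genome. Dcn and Lum lie next to each other on chromosome 10, followed by Kera and Epyc, which read between 2.14 and 2.68 on all arrays. Aspn and Ogn on chromosome 13 have only Omd between them, which read between 1.98 and 2.54, and Prelp and Fmod are adjacent on chromosome 1.

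Versican and the fibulins tie the matrix together. Vcan, the gene of the hyaluronan-binding proteoglycan versican, read 7.14, 6.98, 6.26 and 5.47 untreated and 6.27, 6.01, 5.78 and 5.73 with vitamin C. Its course is like that of Dcn, with the lines crossing after day 5. Fbln2, a fibulin that binds fibronectin and basement membrane proteins, read 9.10, 9.11, 8.70 and 8.42 untreated and 8.42, 8.18, 7.94 and 7.56 with vitamin C. The groups meet at the rounded value of 8.42 without overlap, the untreated array of day 6 lying just above the vitamin C array of day 3. Fbln5, needed for elastic fibre assembly, read 6.86, 6.89, 6.54 and 5.71 untreated and 6.21, 5.61, 5.39 and 5.37 with vitamin C. Its difference was widest on days 4 and 5, when it was over 2-fold lower with vitamin C. Fbln1, a fibulin of fibres and basement membranes, stayed between 6.49 and 6.82 untreated and between 6.00 and 6.39 with vitamin C, with no overlap.

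Among the microfibril and elastic fibre genes, the latent TGF-beta binding proteins went separate ways. Ltbp1, which anchors latent TGF-beta in the matrix, read 8.68, 8.72, 8.63 and 8.79 untreated and 8.41, 8.30, 8.15 and 7.64 with vitamin C. It was flat without vitamin C and declined with it, to a more than 2-fold lower value on day 6. Ltbp2, a microfibril protein of the same family, read 7.42, 7.03, 6.48 and 5.71 untreated and 6.64, 6.11, 6.02 and 5.87 with vitamin C. Unlike Ltbp1 it fell steeply without vitamin C and crossed over by day 6. Mfap5, a microfibril glycoprotein, read 6.00, 5.88, 5.49 and 4.73 untreated and 5.17, 5.42, 4.76 and 4.99 with vitamin C.

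The other 5 genes of this group moved less. Its relative Mfap2 lay between 5.62 and 6.29 over all arrays, and Mfap4 between 3.63 and 3.86, with the smallest vitamin C difference of the 8 measured elastic fibre genes (-0.08 ± 0.10, moderated SE). Fbn2, a fibrillin of developing tissues, lay between 3.87 and 4.75, and Eln, the gene of tropoelastin, between 4.24 and 4.86. Emilin1, which sits where elastin meets microfibrils, was between 4.78 and 5.13 untreated and between 4.28 and 4.76 with vitamin C, without overlap.

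The adhesive and matricellular genes included Tnc, which had the steepest slope of the 33 genes in both treatments. Tnc, the gene of tenascin-C, which loosens the grip of cells on fibronectin, read 9.74, 9.19, 8.38 and 7.34 untreated and 9.08, 8.44, 7.85 and 7.34 with vitamin C. It fell at every step in both treatments and ended at the same rounded value, 18.9% of the day 3 level untreated and 29.8% with vitamin C. Postn, the gene of periostin, a collagen-binding protein of fibroblasts, read 6.82, 6.79, 6.08 and 5.25 untreated and 6.02, 5.56, 5.14 and 5.00 with vitamin C. Vitamin C gave the lower value on each day, at 57.5%, 42.7%, 52.1% and 84.0% of the untreated level. Thbs1, a thrombospondin that binds many matrix proteins and can activate latent TGF-beta, read 11.15, 10.87, 10.31 and 9.87 untreated and 10.31, 9.67, 9.61 and 9.67 with vitamin C. With vitamin C the day 3 value stood apart from the other 3, while without it each day was lower than the one before. Its relative Thbs2 read 7.65, 7.67, 7.11 and 6.51 untreated and 6.89, 7.05, 6.997 and 6.56 with vitamin C.

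Fibronectin, the main adhesive protein of the group, had no slope that passed. Fn1 read 11.18, 11.15, 11.06 and 11.11 untreated and 10.56, 10.62, 11.03 and 11.09 with vitamin C, so that it began lower with vitamin C and had reached the untreated values on days 5 and 6. Sparc, a collagen-binding matricellular protein, went from 10.05 to 9.55 untreated and from 9.41 to 9.75 with vitamin C. These courses point in opposite directions, and neither slope passed. Fstl1, a secreted follistatin-related glycoprotein, read 10.10, 10.25, 10.15 and 10.05 untreated and 9.74, 9.46, 9.53 and 9.004 with vitamin C, with no overlap and the widest gap on day 6, at 48.4% of the untreated level. Spon2, a spondin, lay between 3.39 and 3.82 on all arrays.

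The nidogens bridge laminin and type IV collagen in basement membranes. Nid1 read 8.27, 8.09, 7.63 and 7.16 untreated and 7.55, 7.04, 7.50 and 7.83 with vitamin C. The untreated value was lower on each following day, while with vitamin C it was lowest on day 4 and highest on day 6, so that the difference went from -0.72 on day 3 to 0.67 on day 6. Nid2 read 7.18, 7.28, 7.64 and 7.95 untreated and 7.03, 7.54, 8.01 and 8.07 with vitamin C. It was higher at every step in both treatments, up to 169.8% and 204.8% of its day 3 level.

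Of the surface proteins, Pdgfrb, a receptor for platelet-derived growth factor on fibroblasts and pericytes, read 6.80, 6.38, 5.89 and 5.00 untreated and 5.79, 5.64, 5.24 and 4.80 with vitamin C. It fell at every step in both treatments, and on day 3 the level with vitamin C was 49.9% of that without. Fap, a serine protease of activated fibroblasts, read 3.31, 2.99, 2.60 and 2.27 untreated and 3.16, 2.97, 2.81 and 2.35 with vitamin C, with the treatments close on every day. Pdgfra, the other PDGF receptor, lay between 6.14 and 6.51 untreated and between 5.62 and 6.05 with vitamin C, without overlap, and neither of its slopes passed. Cd248, the gene of endosialin on fibroblasts and pericytes, lay between 9.38 and 9.51 untreated and between 8.89 and 9.45 with vitamin C.

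The first comparison asked which of these genes differed between the treatments over the 4 days, with the arrays of 1 day as a pair. In limma, 1 of the 33 genes, Fbln2, fell and 0 rose, where 0.216% of all 19938 genes fell and 0.537% rose (43 and 107 genes, 0.752% in either direction). Fbln2 was 1.75-fold lower with vitamin C (log2 difference -0.81 ± 0.10, moderated SE, adjusted p = 0.0161), and its daily differences had an SD of 0.11. Without day 4 or day 5 its difference was -0.77 and -0.83, with an adjusted p of 0.139 and 0.118, and over all genes the calls went from 150 to 3 and 9 in these fits. Among the 33, without day 3 there were 2 genes past the threshold (Fbln2 and Fstl1) and without day 6 there were 5 (Fbln2, Fbln5, Postn, Thbs1 and Pdgfrb), while none passed without day 4 or without day 5.

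The values of the genes that missed the threshold lay mostly on the same side. Over the 33 genes the median difference was -0.46 and 30 were below 0, against a median of -0.01 and 51.8% below 0 over all genes. Lum, Nid2 and Fap were above 0, with 0.33, 0.15 and 0.03. Fbln5 had the most negative difference (-0.86 ± 0.16, adjusted p = 0.0546), followed by Postn (-0.80 ± 0.15, adjusted p = 0.0588), Thbs1 (-0.73 ± 0.15, adjusted p = 0.0771) and Fstl1 (-0.70 ± 0.13, adjusted p = 0.0505). For Pdgfrb it was -0.65, for Aspn -0.64 and for Bgn -0.59, with adjusted p-values of 0.0798, 0.0849 and 0.0546. In all, 23 of the 33 had an unadjusted p under 0.05, as had 2531 of all genes.

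Of the 7 small proteoglycans 0 passed, with 5 at an unadjusted p under 0.05 in limma and a median of -0.59. Of the 8 elastic fibre genes 0 passed (5 unadjusted, median -0.36), of the 8 adhesive and matricellular genes 0 (6 unadjusted, median -0.42), of the 2 nidogens 0 (0 unadjusted) and of the 4 surface genes 0 (3 unadjusted, median -0.39). All 4 arrays with vitamin C were below all 4 untreated arrays for 6 genes, namely Fbln1, Fbln2, Emilin1, Ltbp1, Fstl1 and Pdgfra, a pattern found in 2.61% of all genes, and the opposite pattern held for 0 of the 33 and 2.1% of all genes. Vitamin C gave the lower value on all 4 days for 19 of the 33, as for 11.1% of all genes, and the higher value on all 4 days for 0.

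By day, the median difference was -0.58, -0.62, -0.39 and -0.20 on days 3 to 6, and 31, 30, 29 and 22 of the 33 genes were lower with vitamin C. Over all 19938 genes, 9411, 9898, 10661 and 11038 were lower with vitamin C on these days. At least 2-fold lower were Pdgfrb on day 3 (0.301% of all genes), Ogn, Aspn, Prelp, Fbln5, Postn, Thbs1 and Nid1 on day 4 (0.451%), Fbln5 on day 5 (0.266%), and Ltbp1 and Fstl1 on day 6 (0.306%). No gene of the list was 2-fold higher on any day. For 11 genes the difference was below 0 on day 3 and above 0 on day 6: Dcn, Lum, Vcan, Mfap2, Mfap5, Ltbp2, Sparc, Thbs2, Nid1, Nid2 and Fap. For another 11 it was lower on day 6 than on day 3, Fstl1 among them, which went from 77.7% of the untreated level on day 3 to 48.4% on day 6. The shares of all genes with these patterns were not computed.

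**Figure D2:**
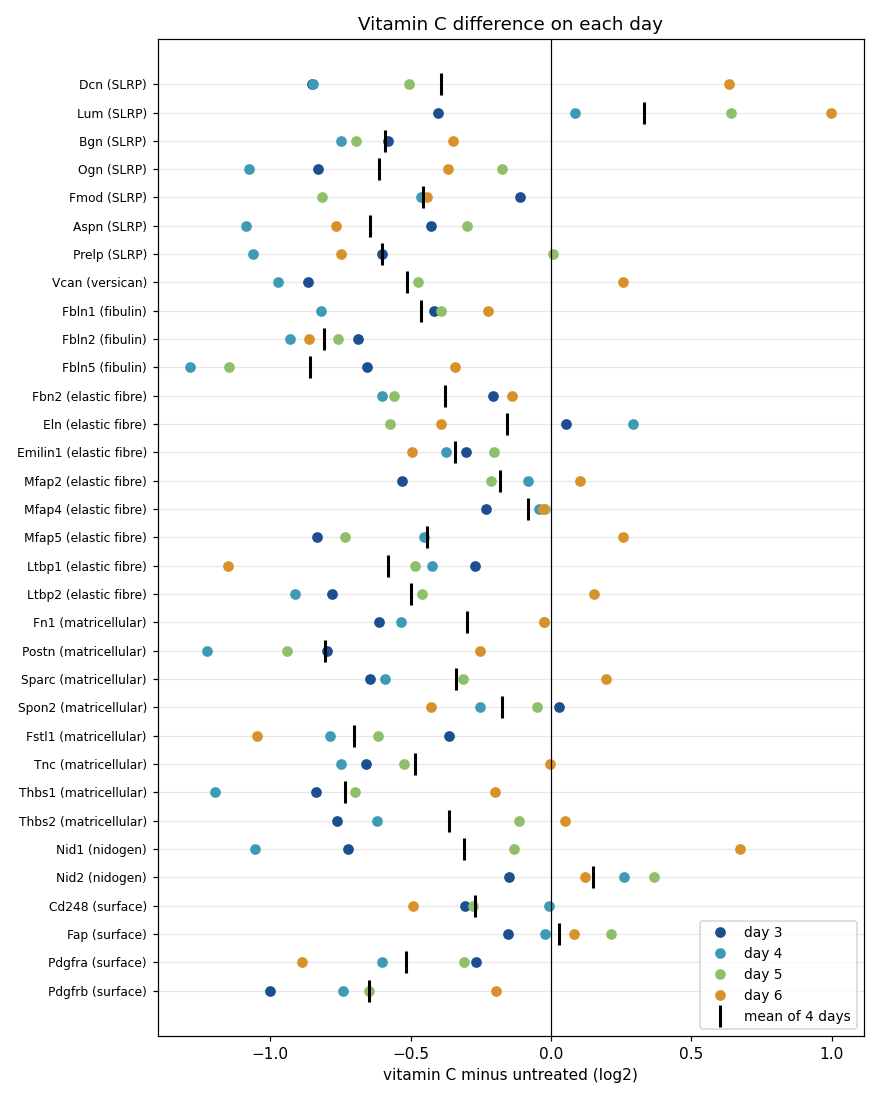
Vitamin C minus untreated log2 value of each of the 33 genes on days 3, 4, 5 and 6 (coloured points, 1 pair of arrays each), with the mean of the 4 days as a black bar. Fbln2 has its 4 points close together between -0.93 and -0.69, while those of Nid1 run from -1.05 to 0.67 and those of Dcn from -0.85 to 0.63.

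The second comparison asked whether the vitamin C difference changed from day 3 to day 6. None of the 33 genes passed in limma, where 13 of all genes did (0.0652%). In limma 12 of the 33 had an unadjusted p under 0.05, as had 2244 of all 19938 genes. The median change was 0.10 per day against -0.02 over all genes. Of the 33, 23 were above 0, as were 8962 of all genes. Nid1 had the largest change, 0.51 ± 0.13 per day (moderated SE, adjusted p = 0.188), which is 1.53 log2 units over the 3 days. Dcn and Lum followed with 0.48 each (adjusted p = 0.281 and 0.421) and Vcan with 0.39 (adjusted p = 0.21). Ltbp1 was at the other end with -0.27 (adjusted p = 0.317), where the deficit with vitamin C widened.

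The third comparison asked which genes fell or rose with day at 1 rate for both treatments. Of the 33 genes 13 fell, where 5.21% of all genes fell, and 1 rose, where 5.03% of all genes rose (10.2% in either direction). The steepest fall was that of Tnc, by 0.69 ± 0.06 per day on the log2 scale (moderated SE, adjusted p = 0.000132), which amounts to 4.23-fold over 3 days. Pdgfrb fell by 0.46 ± 0.06 (adjusted p = 0.0017) and Postn by 0.45 ± 0.06 (adjusted p = 0.00255) per day, 2.62-fold and 2.53-fold over 3 days. Next came Lum (-0.43 per day), Ltbp2 (-0.40), Dcn (-0.39), Vcan (-0.38), Bgn (-0.34), Fbln5 (-0.33), Thbs1 (-0.32), Fap (-0.31), Mfap5 (-0.27) and Fbln2 (-0.26), with adjusted p-values from 0.00257 to 0.0494. Nid2 rose by 0.31 ± 0.05 per day (adjusted p = 0.00378), 1.91-fold over 3 days. This fit takes both arrays of a day as independent, which was not tested. With their mean as 1 value per day, an alternative chosen after the data were seen (2 residual degrees of freedom), 12 of the 33 fell and Nid2 rose, and 1758 of all genes passed. The fall that was lost there was that of Lum (adjusted p = 0.0634).

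The calls were not equally firm. Over the alternatives run, Lum lost its call in 14 of 20, Mfap5 in 11 of 21 and Dcn in 10 of 21, and each turned in sign in 1 more, that with the marker mean described further on. Postn, Pdgfrb, Bgn and Fbln2 lost it in 2 of 21, Fap in 2 of 20 and Tnc in 1 of 21. Nid2 lost its rise in 3 of 21, among them the fits without day 3 (adjusted p = 0.0584) and without day 6 (adjusted p = 0.0973).

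The falls were spread over the roles, with 3 of 7 small proteoglycans, versican, 2 of 3 fibulins, 2 of 8 elastic fibre genes, 3 of 8 adhesive and matricellular genes, 0 of 2 nidogens and 2 of 4 surface genes. The median slope of the 33 genes was -0.14 per day, against -0.01 over all genes. Most of these calls needed day 6: 1 fall (Tnc) was left without both arrays of day 6 and 7 without the untreated array of day 6. Over all genes the falls went from 1038 to 39 and 423 in these fits. Without the vitamin C array of day 6, 12 of the 33 fell. Leaving out an end day shortens the course, so the loss is not particular to these genes. Fn1 (0.09), Fbln1 (0.08), Spon2 (0.06), Eln (0.06), Pdgfra (0.02) and Mfap4 (0.00) had slopes at or above 0 that did not pass.

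The courses were then taken for each treatment. Without vitamin C, 10 of the 33 genes fell, where 0.968% of all genes fell, and 0 rose, where 0.782% of all genes rose. Tnc again led, with -0.80 ± 0.07 per day (moderated SE, adjusted p = 0.000784), and Dcn (-0.63), Pdgfrb (-0.59), Vcan (-0.57), Ltbp2 (-0.57), Postn (-0.54), Thbs1 (-0.44), Mfap5 (-0.42), Thbs2 (-0.40) and Fap (-0.35) followed, with adjusted p-values from 0.00325 to 0.049. Lum, at -0.66, just missed the threshold (adjusted p = 0.0502). These calls depended on the ends of the course: 6 genes fell without the untreated array of day 3 and 0 without that of day 6. Over all genes the falls went from 193 to 48 and 4 in these fits. Without both arrays of day 5 there were 6.

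With vitamin C, 6 of the 33 fell, where 3.39% of all genes fell, and Nid2 rose, where 5.25% of all genes rose (8.64% in either direction). Tnc fell by 0.58 ± 0.07 per day (adjusted p = 0.00095), Postn by 0.35, Pdgfrb by 0.34, Fbln2 by 0.28, Fap by 0.26 and Ltbp1 by 0.24, with adjusted p-values of the last 5 from 0.0149 to 0.0432. Nid2 rose by 0.36 ± 0.07 per day (adjusted p = 0.0106). Its rise was lost without both arrays of day 3, of day 5 or of day 6 (adjusted p = 0.186, 0.0522 and 0.084) and without the vitamin C array of day 3 (adjusted p = 0.179). Only Tnc among the falls was left without both arrays of day 3, of day 5 or of day 6, and without the vitamin C array of day 3 or of day 6. Over all genes the falls went from 676 to between 30 and 215 in these fits.

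Tnc, Postn, Fap and Pdgfrb fell in both treatments. Lower values at every step from day 3 to day 6 were seen for 11 of the 33 genes untreated, against 9.52% of all genes, and for 11 with vitamin C, against 11.1% of all genes. Of the 23 genes with slopes below 0 in both, 17 had the steeper one without vitamin C, and the median slope was -0.20 per day untreated and -0.13 with vitamin C. That difference between the slopes is the second comparison, in which none of the genes passed. The arrays with vitamin C started from a lower level: on day 3 the value with vitamin C was under the untreated value of day 4 for 31 of the 33 genes, under that of day 5 for 27 and under that of day 6 for 16. The shares over all genes were not computed for these counts.

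**Figure D3:**
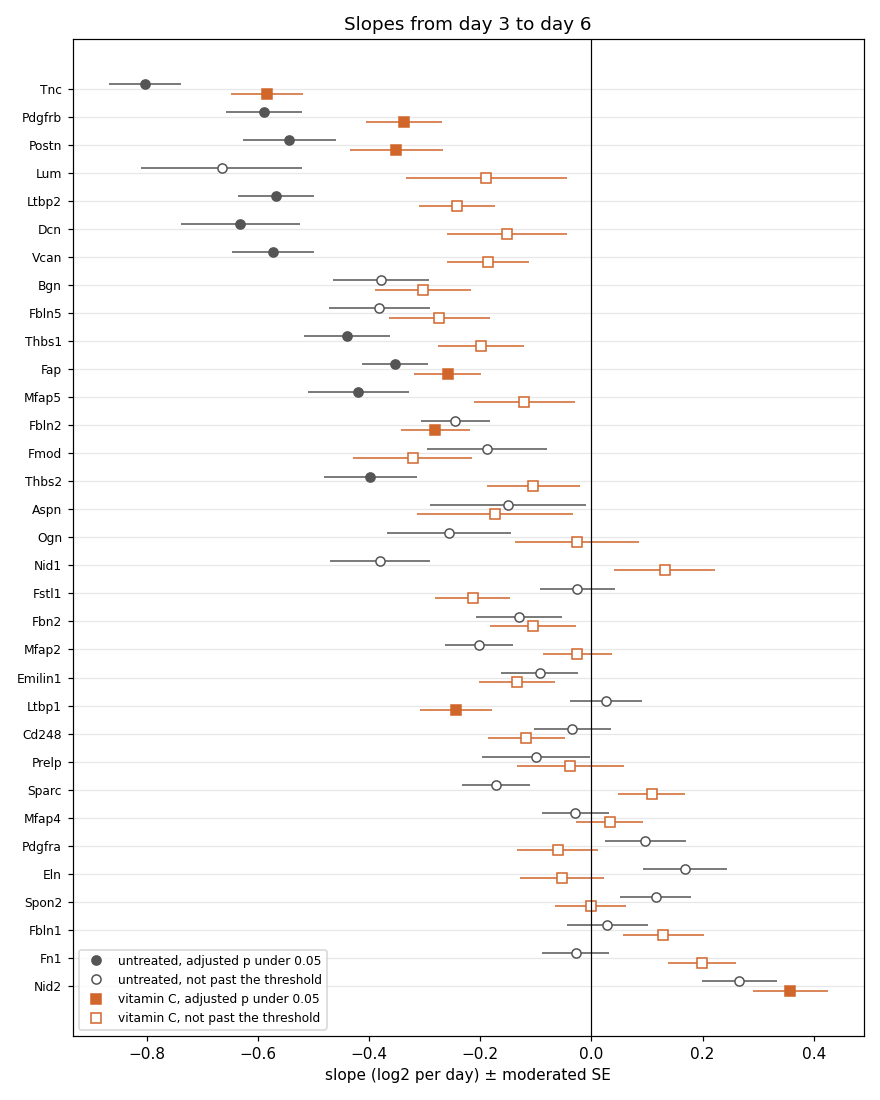
Slope of each of the 33 genes from day 3 to day 6 in log2 units per day, with moderated standard errors, for untreated cells (grey circles) and cells with vitamin C (orange squares), filled where the adjusted p was under 0.05. The filled symbols lie to the left for 10 genes untreated and 6 with vitamin C, and to the right for Nid2 with vitamin C, at 0.36 per day.

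As a reading of feeder cells, the genes were set beside 20 other markers of feeder cells or fibroblasts, none of them on the list, such as the collagen genes Col1a1 and Col1a2, the surface marker Thy1 and the mesenchymal transcription factor gene Prrx1. None of these 20 was at 0, as RMA gives a value for every probe set, and the lowest single value was 2.78. Their mean log2 value was 6.68, 6.63, 6.33 and 5.88 untreated on days 3 to 6 and 6.29, 6.13, 6.01 and 5.80 with vitamin C. Their summed linear signal lay between 2046 and 4406 units untreated and between 1851 and 2819 units with vitamin C. These courses resemble those of the matrix genes in a lower start with vitamin C and a smaller gap on day 6. The likeness is partial. On day 6 the gap had nearly closed for the markers (12 of 20 lower with vitamin C). For the matrix genes it remained, at 6.07 untreated and 5.88 with vitamin C, with 22 of 33 lower. Both lists were chosen with earlier results of these data known, so the likeness is not independent evidence.

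The marker differences on single days had medians of -0.39, -0.49, -0.36 and -0.04 on days 3 to 6, beside -0.58, -0.62, -0.39 and -0.20 for the matrix genes. Over days 1 of the 20 markers, the collagen gene Col5a2, fell with vitamin C (-0.73 ± 0.11, adjusted p = 0.0297), and 10 had an unadjusted p under 0.05, with a median of -0.26. With day at 1 rate for both treatments, 11 of the 20 fell, led by Prrx1 (-0.44 per day), Col1a1 (-0.42), Col1a2 (-0.42) and Twist2 (-0.30). Pcolce, which helps to process procollagen, rose (0.18). In the slopes of each treatment, 8 of the 20 fell untreated and 4 with vitamin C (0.968% and 3.39% of all genes). The smooth muscle and pericyte markers, 8 genes, had Acta2 (-1.12 ± 0.14, adjusted p = 0.0168) and Tagln (-0.72 ± 0.13, adjusted p = 0.0443) lower with vitamin C, and Acta2, Myh11, Tagln and Cnn1 fell with day while Notch3 rose. The part of leftover feeder cells in the values of the matrix genes was not tested directly, since no array held feeder cells alone.

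Taking the marker mean into the fits gave these values. With that mean in place of day, 0 of the 33 genes passed for vitamin C (13 of all genes did). Leaving day out with nothing in its place already gave 0 of the 33 and 17 of all genes, so these lost calls are not read as an effect of the marker mean. With the mean, the median difference was -0.18 in place of -0.46. The differences of Fbln2, Fstl1, Pdgfra, Fbln1 and Prelp were then -0.46, -0.56, -0.55, -0.51 and -0.51, and those of Tnc, Dcn and Lum 0.47, 0.27 and 1.01, each with an adjusted p above the threshold (0.226 to 0.593). These genes lie towards the ends of the range. Those of Vcan, Ltbp2, Thbs2 and Pdgfrb were close to 0, at 0.076, 0.096, 0.055 and 0.021, and did not pass either. With the marker mean beside day, a fit added after the data were seen, 0 of the 13 falls with day passed and 2 of all genes did. The marker mean itself ran with day and differed between the treatments, so in these 8 arrays a loss of cells of the feeder type and a shared fall of their genes in the pre-iPSCs cannot be told apart.

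**Figure D4:**
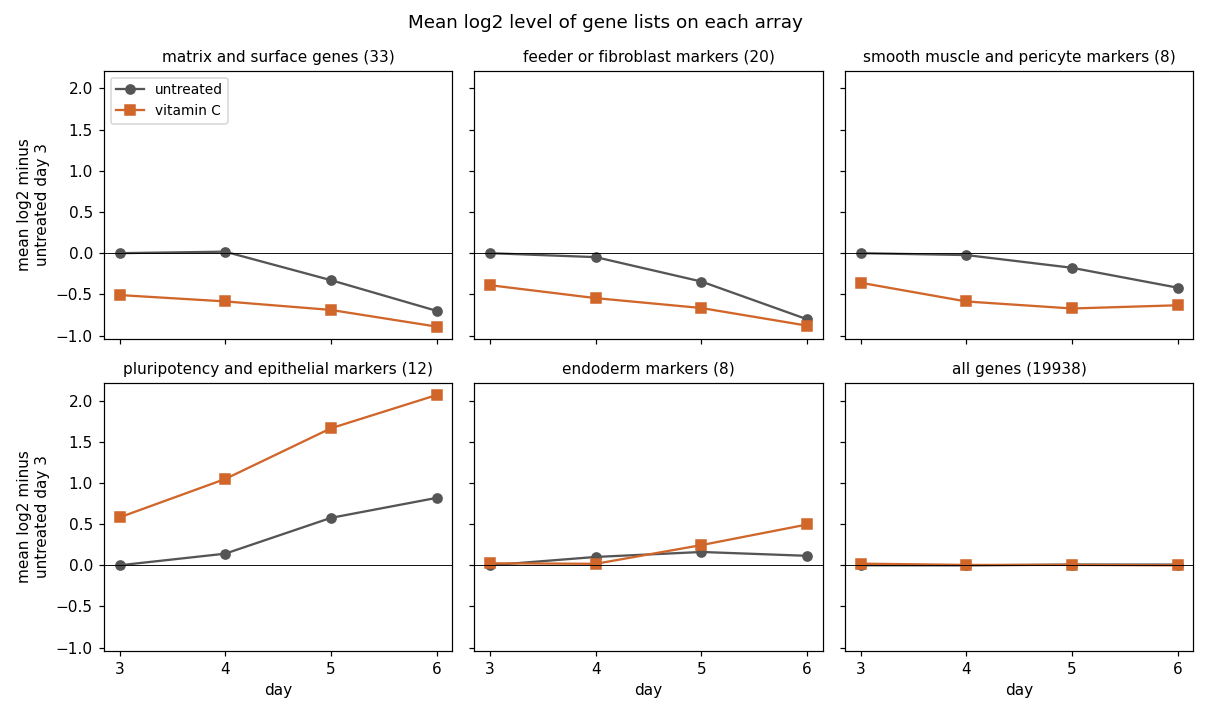
Mean log2 value of gene lists on each array, less the untreated array of day 3, by day, with grey circles for untreated cells and orange squares for cells with vitamin C. The matrix and surface genes and the feeder or fibroblast markers start about 0.51 and 0.39 lower with vitamin C. Both have a smaller gap on day 6, which nearly closes only for the markers, whereas the pluripotency and epithelial markers go up. The mean over all 19938 genes stays level, which RMA sets by giving the arrays like distributions.

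Markers of other cell types took other courses. The 12 pluripotency and epithelial markers went from a mean log2 value of 6.89 to 7.71 untreated and from 7.47 to 8.96 with vitamin C, and 9 of them rose with day. Endoderm cells make basement membrane, the matrix to which nidogens belong. Of the 8 endoderm markers Gata4 (0.52 per day), Gata6 (0.39) and Sox17 (0.35) rose with day, Thbd (-0.43) fell and 4 did not pass (median 0.07). Of the nidogens, Nid2 rose, and the slope of Nid1 (-0.12) did not pass. Of the 8 blood cell markers Cd68 (0.63) and Csf1r (0.66) rose, and of the 8 endothelial markers Plvap (0.25) rose. The other 6 blood cell and 7 endothelial markers did not pass, and the median slopes of these lists were 0.05 and 0.03 per day. Of the blood cell markers 4 had slopes below 0. The part of these cell types in the values of the matrix genes was not tested.

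Related matrix genes outside the list were counted in the same fits. For vitamin C, 1 of 103 measured genes in 7 lists passed, Ccn4, a matricellular CCN protein (-0.70 ± 0.12, adjusted p = 0.0369). In limma 0 passed of 9 other small leucine-rich proteoglycans (1 at an unadjusted p under 0.05), of 18 other proteoglycans (5), of 9 other elastic fibre genes (2), of 11 laminins and basement membrane collagens (3), of 16 matrix receptors (8) and of 21 genes of glycosaminoglycan synthesis (2). The nearest were Ltbp3 (-0.51, adjusted p = 0.0649), Ddr2, a collagen receptor (-0.70, adjusted p = 0.0699), Hspg2, the gene of perlecan (-0.47, adjusted p = 0.0817), and Itga3, an integrin chain (0.49, adjusted p = 0.0823). For the change of the difference with day 0 of the 103 passed in limma, and 16 had an unadjusted p under 0.05.

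With day, these lists split in direction. Of 18 other proteoglycans Gpc3 (0.81 ± 0.07 per day, adjusted p = 0.000165), Spock2 (0.47) and Sdc4 (0.21) rose, and Sdc1 and Sdc3 (-0.24 and -0.25) fell. Gpc3 is the cell surface glypican-3, and it went from 4.92 to 6.83 untreated and from 4.70 to 7.73 with vitamin C. Among 19 other matricellular and adhesive genes Ccn4 (-0.46) and Matn2 (-0.24) fell and Ccn1 (0.41) and Spon1 (0.23) rose. Of 16 matrix receptors Itga4, Itga6, Itga11, Itga8 and the collagen receptor gene Ddr2 fell (-0.34 to -0.20), while Ddr1, the epithelial relative of Ddr2, rose (0.27).

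Basement membrane and elastic fibre genes were divided as well. Lama5, the laminin chain of epithelial basement membranes, rose by 0.25 per day, and Lama2, a chain of muscle and mesenchymal basement membranes, fell by 0.21, among 11 genes measured. Ltbp4 rose (0.21) and Loxl1, which cross-links elastin, fell (-0.33), of 9. Of 21 genes of glycosaminoglycan synthesis Chst15 rose (0.29) and Chsy1, B3galt6 and Csgalnact2 fell (-0.25 to -0.19). None of the 9 other small leucine-rich proteoglycans passed in limma (1 at an unadjusted p under 0.05), where 3 of the 7 on the list fell. All of these 9 except Nyx had a mean log2 value under the median of all genes (4.70). How far such dim probe sets read their RNA is not known, which limits this contrast.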

How the data were processed

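RNA of 8 samples was measured on Affymetrix whole-transcript arrays from 100 ng of total RNA each, per the labels' protocols. Per the submitters' processing notes, Partek and RMA were used by the authors to make the deposited log2 values, and the sources used here state no version. The scale was taken as log2 because the largest value, 13.8, lies above the natural log (11.1) and under the log2 (16.0) of the largest 16-bit scanner reading. Of 28853 probe sets, 21789 had 1 gene symbol in the platform annotation and 1621 had several, which were left out. A gene with several probe sets was represented by the brightest on average (19938 genes, 999 with more than 1 probe set).

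Linear models were fitted with lmFit and eBayes of limma 3.58.1 (R 4.3.3). P-values were two-sided and were adjusted by Benjamini-Hochberg over all 19938 genes, and an adjusted p under 0.05 was called. For the vitamin C effect the test was of the treatment term, with day as a factor (3 residual degrees of freedom, 6.03 prior). The change of that effect and the slopes per treatment came from a model with a slope for each treatment (4 residual, 6.43 prior), and the common slope from treatment beside day as a number (5 residual, 6.14 prior). Day, which the labels give, pairs the arrays of the treatments: over genes, the departures of both arrays of a day from their treatment's mean had correlations of 0.371 (day 3), 0.18 (day 4), 0.125 (day 5) and 0.475 (day 6). These departures hold any trend with day that both treatments share, so the correlations do not show a pairing beyond such a trend.

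The matrix genes and the 13 lists set beside them (171 entries, 167 measured) were chosen with earlier results of these data known. All genes of the matrix list are named, and of every other list up to 4 past the threshold with the smallest p, or up to 2 where none passed, with further ones given to complete a count. The fits were tested on simulated data with 200 changed genes. Promoter windows, neighbours and chromosomes came from RefSeq, assembly GRCm38.p6, and no build is stated for the array itself. Alternatives covered normalization, dim genes, probe sets, eBayes options, thresholds, the use of day, the marker mean, and leaving out days or arrays. Tables and plots were made in Python 3.11.15 (pandas 2.3.3, matplotlib 3.10.9).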

Additional observations from a re-analysis of the deposited data

Results flagged for a closer look

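In 66 groups of 4 arrays (33 genes in 2 treatments), 3 had an end value set apart from the other 3 by a share of the whole range above Dixon's 95% critical value for 4 values, a rate near the 1 in 20 groups that chance gives. Emilin1 with vitamin C read 4.282 on day 6, against 4.716 to 4.757 on the other days, a gap of 0.914 of the range. Sparc with vitamin C read 9.748 on day 6, against 9.389 to 9.445, a gap of 0.843. Thbs1 with vitamin C read 10.31 on day 3, against 9.608 to 9.673, a gap of 0.907. All 3 lay at an end of the time course, where a change with day and a deviating array cannot be told apart with 1 array per day.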

How the results depend on the processing

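With 1 array per treatment and day, counts of calls moved with the settings. Directions moved less, which was partly fixed in advance. The thresholds, the eBayes options, leaving out dimmer genes and averaging probe sets (1 per matrix gene) cannot change an estimate. For vitamin C, neither can day as a number or day left out, as both treatments have the same days. Leaving out an array of the other treatment cannot change a treatment's slope. For vitamin C over days, 150 genes passed in all and 1 of the matrix genes fell. Leaving out the dimmer genes gave 255 and 7, the trend and robust options of eBayes 376 and 8, a threshold of 0.01 gave 18 and 0 and one of 0.1 gave 384 and 8. Day as a numeric term gave 291 and 6, a fit without day (no pairing by day) 17 and 0. The counts were 13 and 0 with the marker mean in place of day, and 3 to 286 and 0 to 5 with a day left out. Centring the arrays on their medians gave 4 matrix genes and averaging probe sets gave 2. Fbln2 lost its call in 5 of 14 settings, with differences from -0.85 to -0.46. With the marker mean the difference turned to 0.27 for Dcn, 0.076 for Vcan, 0.096 for Ltbp2, 0.47 for Tnc, 0.055 for Thbs2, 0.021 for Pdgfrb and -0.24 for Nid2, and the cause was not tested. The difference of Fap, 0.03, was -0.0026 after repeated quantile normalization and ran from -0.032 to 0.091 with a day left out. For the change of the difference, 13 genes became 80 under eBayes's trend and robust options, 28 without the dimmer genes, 21 with quantile normalization, 0 at 0.01, 42 at 0.1, 20 with day as a factor, which pairs the arrays of a day, and 0 to 29 with a day or array left out. The number of matrix genes whose difference moved down was 0 in every setting run, and Nid1 passed upwards without the vitamin C array of day 3.

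For the common slope, 2041 genes passed and 13 matrix genes fell. These became 612 and 7 at 0.01, 3231 genes at 0.1, 2 and 0 with the marker mean beside day (added after the data were seen), 1758 and 12 with day means, which blocks by day (also added), and 109 to 1868 and 1 to 12 with a day or array left out. In the marker fit the slopes turned to 0.38 for Dcn, 0.21 for Lum, 0.11 for Vcan and 0.12 for Mfap5. For the untreated slope, 349 genes and 10 matrix genes became 782 and 16 under the trend and robust options, 670 genes where dim genes were left out, 88 and 4 at 0.01, 773 genes at 0.1, and 1 to 530 and 0 to 13 with a day or array left out. For the slope with vitamin C, 1722 and 6 became 516 and 1 at 0.01, 2917 and 11 at 0.1, 11 matrix genes with trend and robust options, and 167 to 1680 and 1 to 7 with a day or array left out. Of 1895 values computed under alternatives for matrix genes that had not passed, 101 were opposite in sign and 64 passed. The 1895 include settings that cannot change an estimate, so the 101 do not measure how firm the directions are. Leaving out an end day also shortens the course. Dim probe sets, 10 of 33, limit what can be seen of those genes.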
